A study of Mus musculus with 24 samples.

Results

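The comparison asked whether loss of Smad2 changed chromatin accessibility by a different amount in paused than in unpaused mouse embryonic stem cells. The authors deposited a table of accessible intervals for each condition, and the intervals of the tables were paired one to one if at least 50% of each interval lay within the other. This gave 215826 matched intervals, of 356222 distinct intervals in all: 72.0% of the 299780 intervals of the control table and 79.3% of the 272268 intervals of the pausing table. An interval entered the test where at least 4 of the 12 libraries of each table had a value of 10 or more, which 208526 did. For each interval the knockout effect was the mean of the knockout lines minus wild type, on the log2(value + 1) scale, within a table. The quantity reported is the knockout effect in pausing minus the knockout effect in control, here called the difference. A positive difference means that accessibility in the knockouts, relative to wild type, was higher under pausing than in control.

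All libraries came from E14, a mouse embryonic stem cell line, grown on gelatin in medium with serum and leukemia inhibitory factor (LIF). The 3 lines were wild type (WT), Smad2_KO1 and Smad2_KO2, and the labels used here do not say how the knockouts were made. Each line was kept for 12 h either without inhibitor (Ctrl) or with 200 nM INK128, an mTOR kinase inhibitor (Paused). With 4 libraries for each of the 6 groups there were 24, from 50000 cells per library, and the unit of replication is the library: nothing in the labels says that the 4 came from separate cultures. Reads in the matched intervals ran from 10.5 to 18.1 M (megareads) per library.

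Smad2 is a cytoplasmic protein that receptors for Nodal, Activin and TGF-beta phosphorylate; it then enters the nucleus with Smad4 and, through partners such as Foxh1, acts at enhancers of genes such as Lefty1, Lefty2 and Nodal itself. In embryonic stem cells this pathway is active through Nodal made by the cells. Inhibition of mTOR slows growth and puts these cells into a reversible paused state that resembles the diapause of the blastocyst. ATAC-seq reads the accessibility of chromatin to the Tn5 transposase, not the expression of the nearby gene.

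Some promoters are shown first, so that the sequence behind the values at promoter intervals can be read beside them. The promoter windows below hold the intervals with the smallest p in each direction among 7860 tested intervals that overlapped a RefSeq promoter window; none was called, and they were picked after their values were seen. Each sequence is the 250 bases before the transcription start (RefSeq, GRCm38.p6), 5′ to 3′ on the strand of the gene; capitals mark the Smad box CAGAC on either strand.
Plxnb2 (chr15:89173952-89174201, minus strand): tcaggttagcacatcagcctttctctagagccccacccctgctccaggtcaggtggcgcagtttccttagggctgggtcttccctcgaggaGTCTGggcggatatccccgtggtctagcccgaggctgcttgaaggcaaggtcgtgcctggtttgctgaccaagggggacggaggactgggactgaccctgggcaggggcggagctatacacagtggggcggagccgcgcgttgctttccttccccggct
1700013H16Rik (chrX:53757832-53758081, minus strand): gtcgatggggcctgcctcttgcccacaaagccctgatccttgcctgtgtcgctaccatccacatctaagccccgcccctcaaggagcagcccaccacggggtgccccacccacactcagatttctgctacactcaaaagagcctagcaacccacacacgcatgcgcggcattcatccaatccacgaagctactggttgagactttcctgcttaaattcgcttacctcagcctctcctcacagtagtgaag
Rtp2 (chr16:23930795-23931044, minus strand): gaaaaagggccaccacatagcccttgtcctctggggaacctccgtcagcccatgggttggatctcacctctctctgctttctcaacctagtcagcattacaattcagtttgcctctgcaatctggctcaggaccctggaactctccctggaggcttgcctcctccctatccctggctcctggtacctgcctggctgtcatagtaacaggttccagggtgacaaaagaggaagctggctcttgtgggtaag
Gm1070 (chr6:71293515-71293764, plus strand): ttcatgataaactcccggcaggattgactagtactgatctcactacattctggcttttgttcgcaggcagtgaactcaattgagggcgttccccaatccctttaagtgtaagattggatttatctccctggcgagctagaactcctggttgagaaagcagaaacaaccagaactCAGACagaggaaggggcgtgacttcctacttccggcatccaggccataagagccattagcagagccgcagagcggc
The Smad box was in 42.2% of all 32851 promoter windows of this length, so its presence at Plxnb2 and Gm1070 does not set them apart.

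Before the results, one feature of the libraries bears on all of them. The libraries of Smad2_KO1 and Smad2_KO2 that carry the same replicate number were unusually alike, in Paused at every number and in Ctrl at numbers 1 and 4 only. Their recovered reads were compared over the tested intervals by a chi-square per degree of freedom, which is near 1 where counting noise is the whole of the difference. In Ctrl the pair with number 4 gave 1.00 and in Paused the pair with number 2 gave 0.988, both under the noise limit of 1.006. The remaining same-numbered pairs gave 1.05 to 1.28 in Ctrl and 1.01 to 1.06 in Paused, and the 12 pairs with other numbers gave 1.11 to 1.61 and 1.09 to 1.52. The labels name them as different lines and they were kept as such, but the results below are also given with the knockout libraries of 1 number averaged and counted once.

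The knockout lines differed from WT in accessibility at many intervals within each condition. With a single WT line, loss of Smad2 and other differences between the lines cannot be told apart. Over the matched intervals, 16848 were higher (8.08%) and 18141 lower (8.7%) in the knockouts in Ctrl (16.8% called, limma with Benjamini-Hochberg adjusted p under 0.05). In Paused, 21621 were higher (10.4%) and 23569 lower (11.3%), together 21.7%. In bulk libraries, fewer cells of a type and less accessible chromatin per cell cannot be told apart. Against this, 4 intervals had a called difference between the conditions (0.00192% of those tested), with 2 more positive and 2 more negative under pausing (0.000959% each). All 4 had a mean under 50 normalized reads over the 24 libraries. With the knockout libraries of 1 number averaged, no interval was called by limma, and 5.73% had an unadjusted p under 0.05, against 7.49% (15613 intervals) in the fit of all 24, where 3.52% were more positive and 3.97% more negative. With libraries paired by line and replicate number across the tables, limma called no interval (smallest adjusted p = 0.246), and 9.17% had an unadjusted p under 0.05. The edgeR quasi-likelihood test on the recovered reads called 5, those at Tenm4, Stt3b and Ywhaz below and 2 stronger ones, at Cd160 and near Tenm4. For Smad2_KO1 alone and for Smad2_KO2 alone no interval was called (0% of those tested for each), and an unadjusted p under 0.05 was found at 6.24% and 6.08%, respectively. These line contrasts share the WT libraries. For Smad2_KO1 minus Smad2_KO2, in Paused minus in Ctrl, no interval was called, and 2.49% had an unadjusted p under 0.05. That share is under the nominal rate, so the shares given here cannot be read as an excess over it.

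The width of the 95% interval of the difference depended on the level of the interval. The 95% interval of the difference lay within 1 log2 unit of 0 at 171419 intervals (82.2%), and within 0.5 at 25.8%. Among the 13604 intervals with a mean of 200 or more it lay within 1 at all of them and within 0.5 at 98.2%. Among the 62865 intervals with a mean under 20 it lay within 1 at 55.5%. The median standard error was 0.25. These 95% intervals are not adjusted for the number tested, and they count same-numbered knockout libraries as separate. They do not give the difference needed for a call, and the smallest called difference was 1.32 in size.

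**Figure D1:**
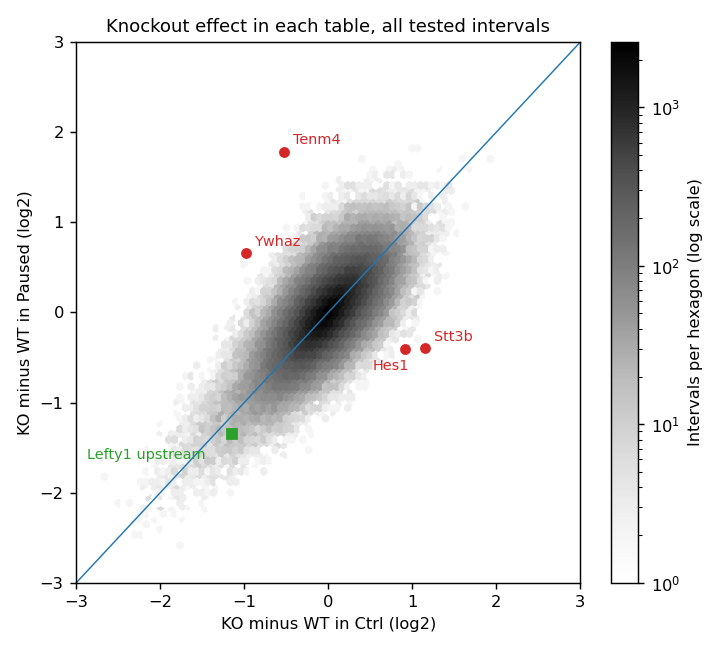
Knockout effect (mean of the knockout lines minus WT, log2, trend with level removed) in Ctrl on the x axis and in Paused on the y axis for all 208526 tested intervals, as counts per hexagon on a log colour scale; the line marks equal effects. Red points are the 4 intervals with a called difference, labelled by their nearest gene, and the green square is the interval upstream of Lefty1.

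Among intervals called in both conditions, the median effects were close. Of the intervals called in both tables, 11644 were lower in the knockouts in both (5.58% of those tested). Their median knockout effect was −0.69 in Ctrl and −0.74 in Paused, and their median difference was −0.04, with an unadjusted p under 0.05 for a more negative difference at 475 and for a more positive one at 83. A further 9098 were higher in both (4.36%), with medians of 0.58 in Ctrl, 0.59 in Paused and 0.01 for the difference, and such a p at 152 more negative and 209 more positive. Over the 20757 intervals called in both tables, such a p in either direction was found at 4.50%. Over all tested intervals it was found at 7.49%, with 3.97% more negative and 3.52% more positive. Only 15 of the 20757 intervals called in both tables had opposite signs, and of these the difference was called at 1, near Ywhaz. Another 14232 intervals were called in Ctrl only and 24433 in Paused only. Among those the difference itself was called at 2 and at 1, respectively. These classes were formed from the same effects as the difference and are a description. Across intervals, which are not independent replicates, Pearson's r between the effect in Ctrl and in Paused was 0.72 (n = 208526, on separate libraries).

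The interval with the largest called difference lay inside Tenm4, which encodes a teneurin, a transmembrane adhesion protein of neurons. It was a weak interval (chr7:96427172-96427372), with a mean of 12.5 over the 24 libraries. In Ctrl, WT libraries had 17.1, 15.2, 8.76 and 16.2 normalized reads, Smad2_KO1 12.8, 13.4, 9.37 and 11.6, and Smad2_KO2 13.0, 7.28, 17.0 and 9.06. In Paused, WT libraries had 4.32, 4.29, 3.24 and 1.32, Smad2_KO1 20.9, 19.0, 15.6 and 10.9, and Smad2_KO2 21.0, 15.8, 18.0 and 15.3. The groups overlapped in Ctrl, and in Paused every knockout library was above every WT library. The knockout effect was −0.52 in Ctrl and 1.79 in Paused, a difference of 2.31 (SE 0.38, limma adjusted p = 0.0159), and 2.23 and 2.39 in the lines taken singly.

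The other more positive interval lay 80240 bases from Ywhaz, which encodes the adaptor protein 14-3-3 zeta (chr15:36883224-36883424). In Ctrl, WT had 27.8, 20.6, 37.2 and 33.4, Smad2_KO1 12.8, 12.3, 18.7 and 11.6, and Smad2_KO2 12.0, 25.5, 20.2 and 21.1 normalized reads. In Paused, WT had 9.72, 17.2, 19.4 and 17.2, Smad2_KO1 26.6, 29.9, 32.0 and 22.8, and Smad2_KO2 32.0, 34.5, 26.9 and 27.4. Here the order of the lines turned over: the knockouts were mostly below WT in Ctrl, with an overlap, and all above it in Paused. Knockout effects of −0.98 and 0.66 gave a difference of 1.64 (SE 0.28, limma adjusted p = 0.0327). Both more positive intervals had shifted bounds between the tables: the intervals share 73.6% of their length at Tenm4 and 59.2% at Ywhaz. The part of that shift in the difference was not tested, and where at least 80% overlap was asked for neither was among the intervals tested.

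The more negative calls were intervals in which WT was low in Ctrl alone. The one nearest to Stt3b (chr9:115340455-115340655, 29987 bases away), a catalytic subunit of the oligosaccharyltransferase that N-glycosylates proteins, had 11.8, 20.6, 17.5 and 10.8 normalized reads in the WT libraries of Ctrl. Smad2_KO1 had 35.1, 44.2, 43.1 and 39.3 there, and Smad2_KO2 34.1, 27.3, 39.3 and 36.2, all above WT. WT libraries of Paused had 46.4, 38.6, 28.1 and 39.7, Smad2_KO1 23.8, 35.3, 40.6 and 32.8, and Smad2_KO2 26.0, 24.8, 31.4 and 42.7, and the groups overlapped. The effect was 1.16 in Ctrl and −0.40 in Paused, a difference of −1.55 (SE 0.26, limma adjusted p = 0.0159). It was the only call left among intervals with at least 80% overlap.

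The interval nearest to Hes1 (chr16:29956182-29956382, 108975 bases away), a transcriptional repressor and a target of Notch signalling, had the same form. WT libraries of Ctrl had 25.6, 17.9, 27.4 and 12.9 normalized reads, Smad2_KO1 47.0, 50.4, 48.7 and 38.1, and Smad2_KO2 33.1, 33.7, 55.2 and 33.2. Under pausing WT had 68.0, 60.1, 46.4 and 59.6, Smad2_KO1 44.7, 38.1, 56.2 and 60.6, and Smad2_KO2 39.0, 37.5, 51.6 and 44.9. Every knockout library was above every WT library in Ctrl, and the groups overlapped in Paused. The effects of 0.92 and −0.40 gave a difference of −1.32 (SE 0.24, limma adjusted p = 0.0499), the call nearest to the threshold.

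These 4 intervals were singled out after their values were seen, since the rule for naming took only intervals with a mean of 50 or more. Leaving out each of the 24 libraries in turn kept the direction at all 4, while the call held in 19 fits at Tenm4, 18 at Stt3b, 11 at Ywhaz and 6 at Hes1. Without Ctrl WT replicate 1, without Paused Smad2_KO1 replicate 1 or 2, or without Paused Smad2_KO2 replicate 1, none of the 4 was called, with limma adjusted p of 0.0520 to 0.156. The same held without Ctrl WT replicate 4, with adjusted p of 0.0850 to 0.302. Stt3b also lost its call without Paused WT replicate 1 (adjusted p = 0.119). The number of called intervals, 4 with all libraries, was 0 in the 5 fits in which none of these held, 1 without Paused WT replicate 1 and 9 without Paused WT replicate 3. It was 2 without Ctrl Smad2_KO1 replicate 1, 2 or 4, without Ctrl Smad2_KO2 replicate 1, without Paused Smad2_KO1 replicate 3 and without Paused Smad2_KO2 replicate 2.

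**Figure D2:**
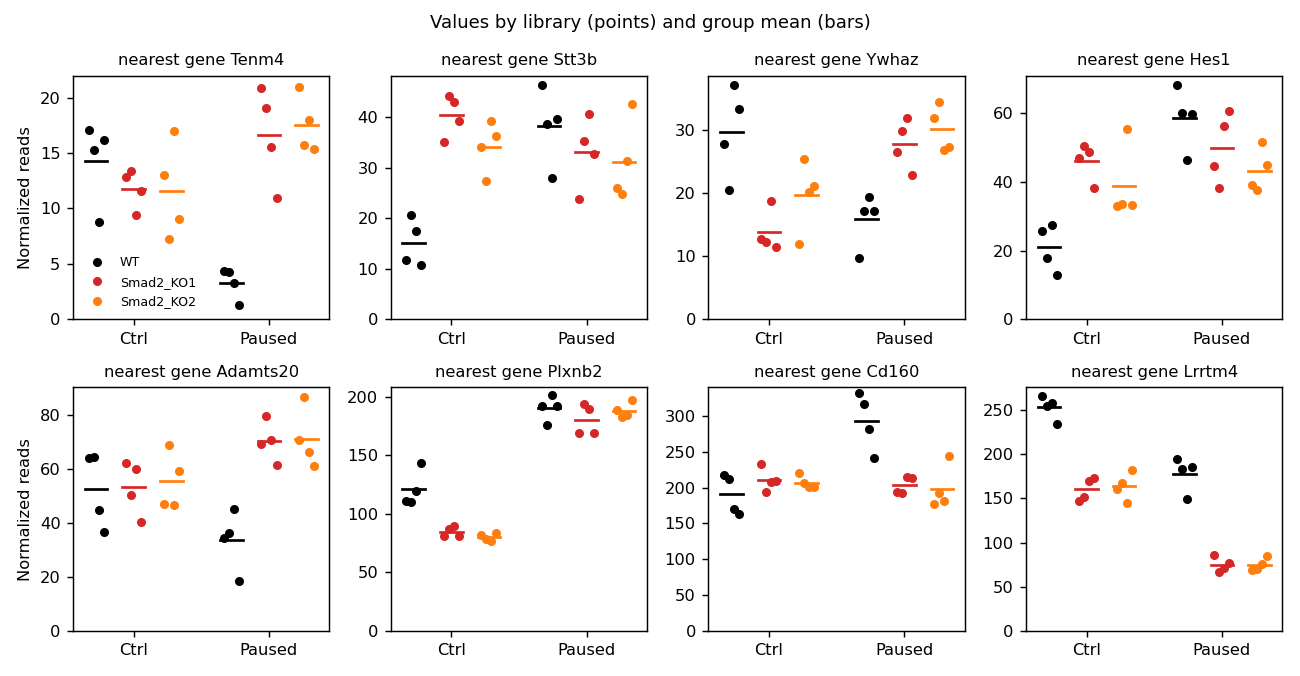
Normalized reads per library (points) and group mean (bars) at 8 intervals, each titled by its nearest gene; black is WT, red Smad2_KO1 and orange Smad2_KO2. The upper row holds the 4 called intervals and the lower row 4 stronger intervals that were not called; the tables were scaled separately, so the contrast to read is that between lines within Ctrl and within Paused.

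Among intervals with a mean of 50 or more none was called, and the 6 of each direction with the smallest p are given as values. The smallest adjusted p belonged to an interval inside Cd160, which encodes a receptor of natural killer and T cells (chr3:96808146-96808346, mean 217). In Ctrl, WT had 218, 212, 170 and 163 normalized reads, Smad2_KO1 233, 193, 207 and 209, and Smad2_KO2 220.5, 207, 200.8 and 200.3. In Paused, WT had 331, 317, 282 and 241, Smad2_KO1 194, 193, 214 and 214, and Smad2_KO2 177, 192, 182 and 244. The lines overlapped in Ctrl, and in Paused a single Smad2_KO2 library, the highest, reached the lowest WT library. The difference was −0.61 (SE 0.11, 95% interval −0.84 to −0.38, limma adjusted p = 0.0797).

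A second interval assigned to Tenm4 as nearest gene lay 482824 bases from it (chr7:95688220-95688420) and went the other way from the one inside the gene. Its Ctrl values were 96.1, 117, 88.7 and 69.0 in WT, 68.4, 73.0, 62.8 and 65.8 in Smad2_KO1, and 67.1, 75.5, 51.0 and 70.5 in Smad2_KO2. Its Paused values were 79.9, 67.6, 56.1 and 49.0 in WT, 23.8, 19.9, 23.3 and 19.9 in Smad2_KO1, and 28.0, 28.5, 28.1 and 29.5 in Smad2_KO2. The groups overlapped in Ctrl, where a library of Smad2_KO1 and 2 of Smad2_KO2 lay above 69.0, and were far apart in Paused. Knockout effects of −0.44 and −1.43 gave a difference of −0.99 (SE 0.19, limma adjusted p = 0.0822), at bounds that share 68.7% of their length. Both this interval and that in Cd160 had an adjusted p of 0.0415 with edgeR on the recovered reads.

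Lrrtm4, a synaptic adhesion protein, held an interval that was lower in the knockouts in both conditions and by more under pausing (chr6:80589916-80590116). In Ctrl, WT had 266, 254, 258 and 234, Smad2_KO1 147, 152, 170 and 173, and Smad2_KO2 160, 167, 144 and 182. WT libraries of Paused had 194, 184, 149 and 185, Smad2_KO1 85.5, 66.2, 70.8 and 76.5, and Smad2_KO2 68.9, 69.7, 75.2 and 85.3. The groups did not overlap in either condition. The effect was −0.58 in Ctrl and −1.19 in Paused, and the difference of −0.61 (SE 0.13) did not pass (limma adjusted p = 0.149).

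At Rbfox1, which encodes a neuronal splicing regulator, effects of 0.04 in Ctrl and −1.10 in Paused gave a difference of −1.14. The remaining intervals more negative under pausing were near Rnase11, of the ribonuclease A family (−0.70), and near Rab2a, a GTPase of transport between endoplasmic reticulum and Golgi (−0.74). The latter interval lay 18643 bases from Rab2a. At Rbfox1, Rnase11 and Rab2a alike, the knockouts overlapped WT in Ctrl and were all below WT in Paused.

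Of the 6 intervals more positive under pausing, those near Adamts20, a secreted metalloprotease, and Bbx, an HMG-box protein, overlapped in Ctrl and had every knockout library above WT in Paused. At Adamts20 (chr15:94325061-94325261) the Paused values were 34.5, 36.5, 45.3 and 18.5 in WT, 69.4, 79.8, 70.8 and 61.6 in Smad2_KO1, and 70.9, 87.0, 66.2 and 61.3 in Smad2_KO2, with a difference of 1.01. At the interval near Bbx, 51536 bases from the gene, the difference was 0.80.

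Knockouts were all below WT in Ctrl and overlapped WT in Paused at the intervals at Plxnb2 and near Anapc16. Plxnb2 is a receptor for class 4 semaphorins. Anapc16, 17396 bases from its interval, is a subunit of the anaphase-promoting complex. The Plxnb2 interval (chr15:89174066-89174266) overlaps the promoter printed above. Its Ctrl values were 111, 110, 119 and 143 in WT, 81.2, 87.4, 89.96 and 80.9 in Smad2_KO1, and 82.2, 78.3, 76.5 and 83.5 in Smad2_KO2. Its Paused values were 192, 176, 202 and 192 in WT, 169, 194, 189 and 169 in Smad2_KO1, and 189, 183, 184 and 197 in Smad2_KO2. The effect of −0.50 in Ctrl (limma adjusted p = 3.9e-05) was 0.06 in Paused, and the difference was 0.57 (SE 0.12, limma adjusted p = 0.188). Intervals at Col9a3, a chain of type IX collagen, and near Tspan18, a tetraspanin (26930 bases away), had differences of 0.84 and 0.85. Over the 10 intervals of both directions other than Cd160 and Tenm4, limma adjusted p ran from 0.149 to 0.232.

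The targets of Nodal signalling were examined next, since Smad2 transduces it. Lefty1 encodes a secreted Nodal inhibitor. Of the intervals nearest to it, the one upstream with the smallest false discovery rate in the authors' deposited table for Ctrl was read (chr1:180924842-180925042, 9980 bases from the gene), so its effect in Ctrl is a description. It had 360, 355, 395 and 299 normalized reads in WT in Ctrl. Smad2_KO1 had 133, 114, 154 and 162 there, and Smad2_KO2 152, 160, 155 and 184. Under pausing WT had 478, 485, 449 and 384, Smad2_KO1 146, 148, 166 and 145, and Smad2_KO2 153, 177, 171 and 181. No knockout library came near WT in either condition. The knockout effect was −1.15 in Ctrl and −1.35 in Paused, and the difference of −0.20 had a 95% interval of −0.44 to 0.04 (SE 0.12, limma adjusted p = 0.737). In this fit the 95% interval puts any further loss under pausing at less than 0.44 log2 units, beside a loss of more than 1 in each condition. The Ctrl effect that picked the interval also enters the difference, so the difference and this bound are a description too. The difference ran from −0.274 to −0.184 with other processing, and from −0.288 to −0.12 with single libraries left out.

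The strongest intervals at Lefty1 itself, chr1:180934678-180934878 in Ctrl and chr1:180936823-180937023 in Paused, shared 0 bases and were not matched. The strongest matched one (chr1:180937893-180938093, mean 47.1) was lower in the knockouts in both conditions, with effects of −0.48 and −0.54 and a difference of −0.06 (95% interval −0.50 to 0.38). Lefty2, its neighbour and a second Nodal inhibitor, was read at chr1:180894356-180894556. In Ctrl, WT had 103, 109, 95.3 and 90.6 against 59.8, 68.9, 73.1 and 68.2 in Smad2_KO1 and 62.1, 80.1, 76.5 and 75.5 in Smad2_KO2. In Paused, WT had 124, 131, 106 and 113 against 107, 93.3, 99.3 and 101 in Smad2_KO1 and 94.9, 95.2, 95.4 and 95.2 in Smad2_KO2. The effect of −0.47 passed in Ctrl (limma adjusted p = 0.000427) and that of −0.22 in Paused did not (0.107). The difference of 0.26 did not pass either (95% interval −0.02 to 0.53, limma adjusted p = 0.704), so Lefty2 is not shown to respond differently.

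Nodal itself (chr10:61423358-61423558) had effects of 0.14 and 0.17 and a difference of 0.03 (95% interval −0.18 to 0.25). Smad7, an inhibitory Smad, had a difference of 0.11, and Cer1, another secreted Nodal antagonist, −0.03. Foxh1, the DNA-binding partner of Smad2, had 0.01. Of the 12 listed target genes, 11 had a strong interval to read, and none had an unadjusted p under 0.05 for the difference. Across all 135 intervals nearest to the 12 genes, 7 were higher and 28 lower in the knockouts in Ctrl, and 9 and 23 in Paused; over all tested intervals these shares were 8.08% and 8.7% in Ctrl and 10.4% and 11.3% in Paused. No difference among them was called, beside 0.00192% of all tested intervals. An unadjusted p under 0.05 was found at 8 more positive and 4 more negative intervals, 8.89% beside 7.49% of all tested intervals, and the median difference was 0.03 beside −0.00.

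At Smad2 (chr18:76241181-76241381) accessibility did not mark the knockouts: the strongest interval had effects of 0.07 and 0.04 and a difference of −0.03 (95% interval −0.21 to 0.15). Accessibility says nothing of the protein, and so this checks no label. Smad3, the closest relative of Smad2, had a difference of −0.09 at its strongest interval and Smad4, the common partner, 0.01. Among the 422 intervals nearest to 17 receptors, ligands and Smads, 29 were higher and 40 lower in Ctrl and 34 and 47 in Paused, beside the same 8.08% and 8.7%, and 10.4% and 11.3%, of all intervals. No difference among them was called, beside 0.00192% of all tested intervals. An unadjusted p under 0.05 was found at 13 more positive and 11 more negative intervals, 5.69% beside 7.49% of all. An interval inside Smad3 (chr9:63674738-63674938, mean 15.0) had the smallest p of that list, with a difference of 1.54 (SE 0.41, limma adjusted p = 0.304).

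**Figure D3:**
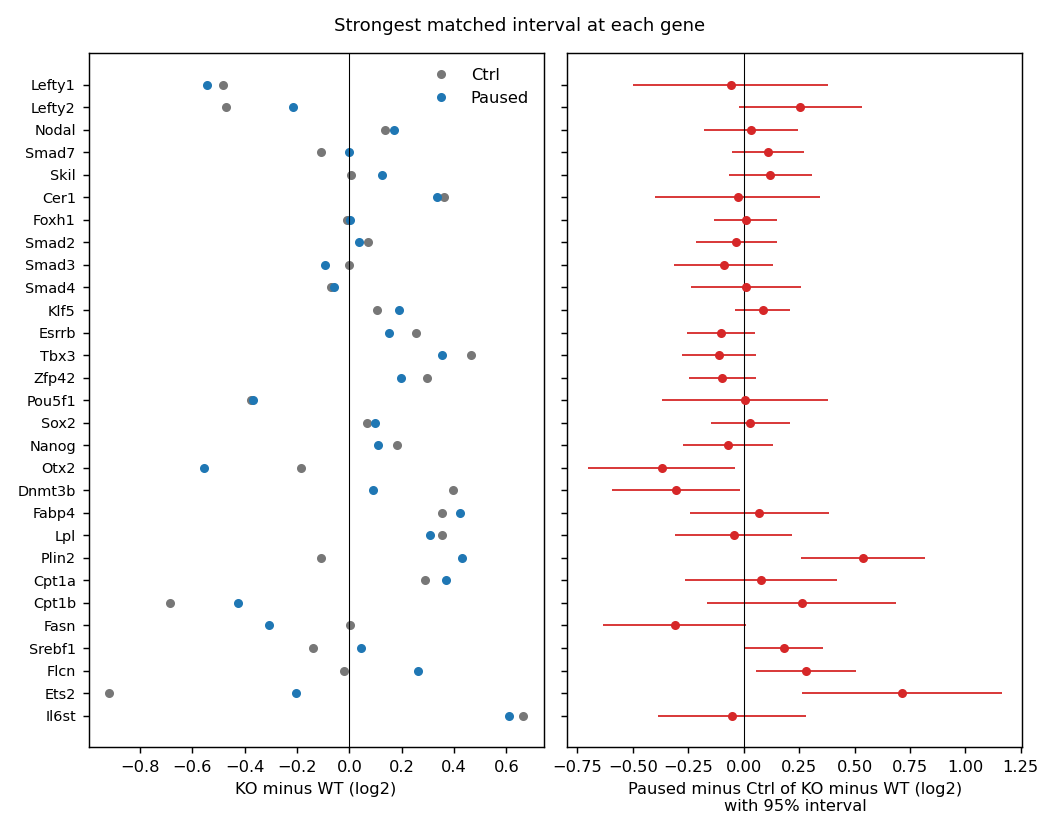
Strongest matched interval within 1000 bases of each of 29 genes from the lists, picked for display with values known. Left, knockout effect (log2) in Ctrl (grey) and Paused (blue); right, the difference with its 95% interval, none of which had an adjusted p under 0.05.

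The strongest matched interval was read at each gene of all 17 lists. Of 189 genes, 169 had one; 18 were higher and 13 lower in the knockouts in Ctrl, and 17 and 15 in Paused, beside 16.8% and 21.7% of all tested intervals in either direction. Beside a called share of 0.00192% over all tested intervals, none of the 169 differences was called. Their 95% interval lay within 0.5 log2 units of 0 at 140 and within 1 at 167. An unadjusted p under 0.05 was found at 6, with 4 more positive and 2 more negative, beside 7.49% of all tested intervals.

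Genes of PPAR signalling and lipid metabolism formed a list of 29. Plin2, a coat protein of lipid droplets, had the largest difference among them at its strongest interval (chr4:86669910-86670110). In Ctrl, WT had 97.2, 107, 94.2 and 108 normalized reads, Smad2_KO1 85.5, 67.9, 101 and 84.3, and Smad2_KO2 96.2, 109, 97.7 and 96.6. WT libraries of Paused had 120, 126, 145 and 138, Smad2_KO1 145, 196, 168 and 140, and Smad2_KO2 162, 190, 178 and 160. The groups overlapped in Ctrl, and in Paused 1 of the 8 knockout libraries lay within the WT range and the others above it. Effects of −0.11 and 0.43 gave a difference of 0.54 (95% interval 0.26 to 0.82, limma adjusted p = 0.293). Srebf1, a transcription factor of lipid synthesis, had a difference of 0.18, and Fasn, the fatty acid synthase, −0.31. Fabp4 and Lpl, a fatty acid carrier and a lipase, were higher in the knockouts in both conditions, with effects of 0.35 and 0.42 at Fabp4 and 0.35 and 0.31 at Lpl. Cpt1b, a carnitine palmitoyltransferase, was lower in both, at −0.69 and −0.43, and no difference passed at any of the 29 genes.

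Pparg, a nuclear receptor of fat cells, could not be read at its strongest site. Its strongest intervals in the tables (chr6:115362035-115362235 in Ctrl, chr6:115362155-115362355 in Paused) shared 81 bases, which is under the overlap asked for, and so were not matched. The strongest matched interval at Pparg was weak, with a mean of 19.3 and a difference of −0.20 (95% interval −0.76 to 0.36).

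Of 9 naive pluripotency genes with a strongest matched interval, 3 were higher there in the knockouts in Ctrl and 4 in Paused, and none was lower. Over all tested intervals 8.08% were higher and 8.7% lower in Ctrl, and 10.4% and 11.3% in Paused. Among all 449 intervals nearest to the 12 listed genes, 59 were higher and 20 lower in Ctrl, and 63 and 37 in Paused. At the strongest interval, Tbx3, Zfp42 and Esrrb, markers of naive cells, were those higher in both. Their effects were 0.47 and 0.35, 0.29 and 0.20, and 0.26 and 0.15. Their differences were −0.11, −0.10 and −0.10, and none passed. The core factor genes Nanog, Sox2 and Pou5f1 had differences of −0.07, 0.03 and 0.01. A second interval of Esrrb (chr12:86466261-86466461, mean 344) had the smallest p of the naive list. Its knockout effect was 0.12 in Ctrl and −0.25 in Paused, a difference of −0.37 (SE 0.10, limma adjusted p = 0.293).

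Among genes of the formative state, Otx2, a homeobox factor, and Dnmt3b, a DNA methyltransferase, had differences of −0.37 and −0.30 (limma adjusted p = 0.617 and 0.639). At Otx2 the effect was −0.18 in Ctrl and −0.55 in Paused, and at Dnmt3b 0.40 and 0.09. Ets2, a transcription factor of trophoblast stem cells, had −0.92 and −0.20, a difference of 0.71 (95% interval 0.26 to 1.16, limma adjusted p = 0.402). Flcn, folliculin, which links amino acids to mTORC1 and the Tfe3 factor, had −0.02 and 0.26, a difference of 0.28. At Mtor the strongest interval had a difference of −0.06 and at Tfeb, a lysosomal transcription factor, 0.08.

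No list held a called difference (0 of 17). Over all tested intervals the called share was 0.00192%. Lists of 86 to 449 intervals can hardly hold a call at that share, so this count says nothing about their genes. The share of intervals with an unadjusted p under 0.05 ran from 4.92% for genes of other cell types to 10.6% for trophoblast genes, beside 7.49% overall. List medians of the difference lay between −0.04 and 0.03. Among the list intervals with the smallest p were ones nearest to Skil, a Smad corepressor (difference 1.00), Id2, a target of BMP signalling (0.98), Lef1, a Wnt effector (1.03), Spry2, an inhibitor of receptor tyrosine kinases (0.66), and Tfap2c, a trophoblast factor (−0.74). Their limma adjusted p ran from 0.280 to 0.399. Those assigned to Id2, Spry2 and Tfap2c lay 248515, 159511 and 152072 bases from the gene.

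Markers of the cell types that a culture could hold were checked in the same intervals. All 5 embryonic stem cell markers had a matched interval (means 58.1 to 539), as did 5 of 5 of primitive endoderm (17.0 to 275), 3 of 4 of trophoblast (55.2 to 473) and 9 of 10 of other cell types (22.9 to 293). The medians were 420, 209, 114 and 90.9, in the same order, while the ranges overlapped. The presence of a matched interval alone therefore did not separate these lists. At its strongest matched interval, none of these markers had an unadjusted p under 0.05 for the difference. Other intervals nearest to Esrrb, Sox2 and Cd3e, of smallest p in their lists, had limma unadjusted p of 0.000337, 0.00564 and 0.00166. Their limma adjusted p ran from 0.293 to 0.470.

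Intervals were also split by where they lay. Of the 7860 intervals that overlapped a promoter window, 4.30% had an unadjusted p under 0.05 for the difference, beside 7.62% of the 105727 inside gene bodies and 7.60% of the 94939 outside both. The called intervals were 0, 1 and 3. At the promoters printed above, the difference was 0.57 at Plxnb2, 1.14 at 1700013H16Rik, −1.04 at Rtp2 and −0.27 at Gm1070, with limma adjusted p of 0.188 to 0.374. Promoters with the Smad box (CAGAC) had a median difference of 0.01 and those without it −0.00. Promoters with the Foxh1 motif TGTGNATT (3.18% of windows) had 0.00, and those with CACGTG, the E-box read by the Tfeb and Myc families (6.02% of windows), −0.01. Both strands were searched.

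The difference had a trend with level, which was removed before intervals were named. On the authors' scaling, intervals of the lowest decile by level had a median knockout effect of 0.26 in Ctrl and 0.37 in Paused. Those of the highest decile had −0.06 in Ctrl and −0.15 in Paused. The median difference therefore fell from 0.11 to −0.09. After a loess fit between libraries within each table it ran from 0.07 in the lowest decile to −0.02 in the seventh and −0.01 in the highest.

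**Figure D4:**
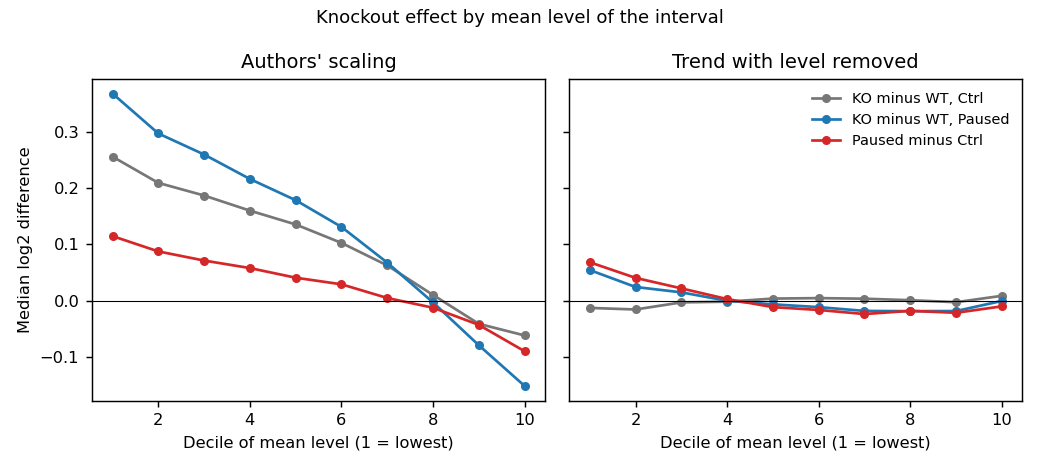
Median log2 knockout effect in Ctrl (grey) and Paused (blue) and median difference (red) in each decile of intervals by mean level over the 24 libraries. Left, on the authors' scaling, all 3 fall with level, the effect in Paused more steeply than that in Ctrl; right, after removal of the trend, the medians lie between −0.02 and 0.07.

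The same trend was visible library by library. The highest decile of matched intervals by level held 45.3, 43.6, 42.1 and 45.4% of the signal in the WT libraries of Ctrl and, in Paused, 48.7, 45.6, 44.6 and 48.8%. In Smad2_KO1 it held 42.6, 40.5, 43.4 and 43.5% in Ctrl and 43.5, 42.7, 43.1 and 44.7% in Paused. In Smad2_KO2 it held 42.2, 41.9, 42.8 and 43.4% in Ctrl and 42.8, 42.5, 43.1 and 45.3% in Paused. WT overlapped the knockouts in Ctrl, and in Paused only the number 4 libraries of the knockouts reached the lowest WT library. The share rose from Ctrl to Paused by 2.81 ± 0.658 percentage points in WT (SD, n = 4, Paused minus Ctrl within a replicate number) and by 0.922 ± 0.833 in the knockouts (n = 8). The gap of −1.89 points had an exact permutation p of 0.00606 (two-sided, all splits of the 12 such differences into 4 and 8, adjusted over 2 tests 0.00606). For the slope of the log2 value on level the gap was −0.05 (exact permutation p = 0.00202, the smallest that these splits allow, adjusted 0.00404). With the knockout libraries of 1 number averaged, both gave an exact permutation p of 0.0286, the smallest that 4 against 4 allow. WT libraries thus gained more of their signal in strong intervals under pausing than knockout libraries did. Reads in the matched intervals differed as well. In Paused every Smad2_KO1 library (13.6 to 15.5 M) had more than every WT library (10.5 to 13.5 M). Smad2_KO2 ran from 11.9 to 18.1 M. The part of these read counts in the trend was not tested.

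**Figure D5:**
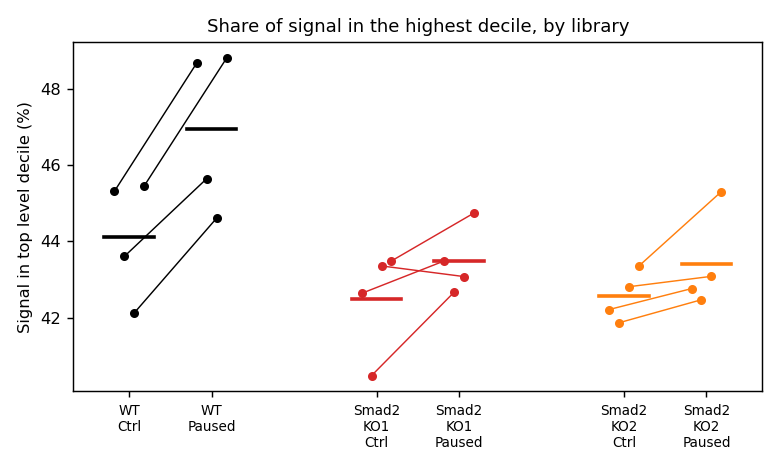
Share of normalized signal in the highest decile of matched intervals by mean level, per library (points), with Ctrl and Paused libraries of 1 replicate number joined by a line and group means as bars; the y axis is in percent and does not start at 0. The WT means are 44.1% in Ctrl and 46.9% in Paused, and the knockout means lie between 42.5% and 43.5%.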

How the data were processed

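ATAC-seq was made from 24 libraries of E14 embryonic stem cells, and the authors deposited a table of intervals for Ctrl and another for Paused. Bowtie2 2.4.1, MACS3 3.0.3, DiffBind 3.16.0, FastQC, Trim Galore and mm10 are named, without role, per the submitters' processing notes; read shifting and duplicate handling are not given in the sources used here. The deposited values are normalized signal: the reads of an interval over a factor that each library has of its own, so that the values fell on whole multiples of 1 read (100% in every column, within 0.0051 plus 0.0001 per read). In 4 of the 24 columns that step is so near 1 that this says little, and their reads are less sure. The authors' log2 concentration and fold columns, p-value and false discovery rate columns entered no test; the false discovery rate for Ctrl picked the upstream Lefty1 interval.

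Intervals were matched between tables, filtered and set to log2(value + 1). The trend with level was removed by fast cyclic loess within each table. One limma 3.58.1 fit (R 4.3.3, lmFit and eBayes with trend) held all 6 groups, with Benjamini-Hochberg adjustment over 208526 intervals. A table's own offset cancels in the difference. edgeR 4.0.16 ran on the recovered reads. The libraries' depth, 10.5 to 18.1 M reads, sets the precision given in the report, and intervals cover the spread between libraries only.

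Genes are the nearest protein-coding gene in RefSeq (GRCm38.p6, which has the coordinates of mm10). Named were intervals of mean 50 or more by smallest p in each direction (6 each, as none was called), the strongest matched interval of Smad2, Pparg, Nodal, Lefty1 and Lefty2, the Lefty1 upstream interval, and intervals of smallest p per list. The intervals, gene lists and tests were chosen with earlier results of these data known. Alternatives were other normalizations, filters, pseudocounts, overlaps and tools, replicate blocks, averaging of knockout libraries, and leaving out each library; edgeR and sums per gene and per 100 kb were added after seeing the data.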

Additional observations from a re-analysis of the deposited data

Results flagged for a closer look

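The knockout effect differed between Paused and Ctrl, by the test of the difference itself, at the interval in Tenm4 (a log2 difference of 2.31), near Stt3b (−1.55), near Ywhaz (1.64) and near Hes1 (−1.32). None of the 4 was called with line and number as a replicate block across the tables (limma adjusted p 0.246 to 0.26) or with the knockout libraries of 1 number averaged (0.465 to 0.724). Measures per library also differed in how they moved from Ctrl to Paused: the slope on level by −0.0451 and the share of signal in the highest decile by −1.89 percentage points, knockouts minus WT.

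Single libraries stood apart from the other 3 of their group at 12 of the 240 groups of 4 values searched, mostly at named intervals, and chance gives about 12. In the Ctrl knockouts these were 55.2 normalized reads near Hes1 (Smad2_KO2, the others 33.1 to 33.7), 22.5 at Skil (Smad2_KO1, 19.5 to 19.7), 8.09 near Id2 (Smad2_KO1, 15.0 to 16.2) and 109 at Plin2 (Smad2_KO2, 96.2 to 97.7). In Ctrl WT they were 4.31 near Sox2 (the others 5.34 to 5.48) and 9.86 at Lifr (18.2 to 18.8). In the Paused knockouts they were 153 in Smad2_KO1 (115 to 121) and 112 in Smad2_KO2 (132 to 135) near Anapc16, 89.99 near Tspan18 (Smad2_KO2, 73.9 to 76.3), 166 upstream of Lefty1 (Smad2_KO1, 145 to 148) and 24.8 at Skil (Smad2_KO2, 20.2 to 21.0). In Paused WT it was 49.6 at Rbfox1 (31.3 to 34.4).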

How the results depend on the processing

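The count of called differences, 4, was 0 with a mean of 50 or more asked for, a filter that leaves out all 4 called intervals and so does not test them. It was 1 with at least 80% overlap, 0 with the knockout libraries of 1 number averaged (fewer samples), and 0 for values summed per gene and per 100 kb. Leaving out each library gave 0 to 9 for the mean of the lines and 0 to 4 for Smad2_KO1 (0 in 21 of 24 fits); Smad2_KO2 stayed at 0. For Smad2_KO1 alone, with 0 called, robust eBayes called 4. Other normalizations, filters, pseudocounts and edgeR gave 3 to 5 for the mean. With the replicate number as a replicate block within each table the count was 4 (Smad2_KO1 6), and with line and number as a block across the tables it was 0. Libraries of the 2 tables were also correlated after the group mean of each interval was subtracted. Those with the same number gave 0.139 to 0.216 in WT, 0.022 to 0.083 in Smad2_KO1 and 0.043 to 0.141 in Smad2_KO2. Those with other numbers gave means of −0.059, −0.016 and −0.030, in the same order. Since not all same-numbered correlations were over 0.1, the numbers were not a block in the reported fit. Yet 11 of the 12 correlated best with their own number, and the trend per library was taken as Paused minus Ctrl within a number. The 4 calls thus come from a fit that leaves this pairing out. The small difference at Nodal changed sign without trend removal (−0.0431), with DESeq2 size factors (−0.0549), with library totals (−0.00755) and in 3 of 24 fits that left out a library: Ctrl WT replicate 2 (−0.0135, the lowest), Ctrl Smad2_KO2 replicate 1 and Paused WT replicate 4. Leaving out single libraries took the difference at Smad2 from −0.117 to 0.0397 (without Paused WT replicate 3 and 4) and that inside Lefty1 from −0.14 to 0.0654 (without Paused WT replicate 4 and without Paused Smad2_KO2 replicate 1); Lefty1 also changed sign without Paused WT replicate 1 or Paused Smad2_KO1 replicate 2. The cause of these changes was not tested. At Hes1 the call was also lost with library totals, no filter and a pseudocount of 0.1. The weak intervals were the least precise: the median standard error was 0.35 under a mean of 20 and 0.097 at 200 or more.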

Other observations

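Summed over the intervals nearest to each gene, the smallest p belonged to Rnase11 (log2 difference −0.72, limma adjusted p = 0.0818, a single interval). At 14 further intervals called in both tables with opposite signs, the difference itself was not called. Among them were intervals nearest to Jarid2, a cofactor of Polycomb repressive complex 2 (0.68 in Ctrl, −0.94 in Paused, limma adjusted p of the difference 0.149), and Tbl1xr1, a subunit of the NCoR corepressor complex (−0.54 and 0.73, adjusted p = 0.149). These were picked after their values were seen. On the X chromosome 4805 intervals were tested and none was called, beside 0.00192% of all tested intervals. The median difference on the X chromosome was −0.03.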
